A study of Schizosaccharomyces pombe with 12 samples.

Results

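Antisense non-coding RNAs of the fission yeast Schizosaccharomyces pombe are described here as they were annotated in the genome of an inducible break system. The members were chosen by position. They are the features on chromosomes I, II and III whose names begin with SPNCRNA and that share at least 1 base with a protein-coding feature of the opposite strand. This rule took 965 of the 1540 SPNCRNA features on these chromosomes and of the 7002 features in the whole annotation. A coding feature was one with a systematic name of the SPA, SPB or SPC series that is not an RNA, of which there were 5150. An antisense RNA is transcribed from the strand opposite a gene, so the 2 transcripts have complementary sequence over the bases they share. In fission yeast, RNAs of this kind are known from growing, starved and meiotic cells, and many are removed quickly by the nuclear exosome, an RNA-degrading complex. Where such an RNA and the messenger RNA opposite are both made, either strand of the same DNA can pair with a transcript. An assay of RNA-DNA hybrids that does not keep the strand therefore cannot tell which of the transcripts is paired.

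The study profiled 12 ChIP-exo libraries in 6 groups of 2. In ChIP-exo, immunoprecipitated chromatin is digested by an exonuclease up to the protein or structure that the antibody holds. All strains carried the DSB-PpoI system, where I-PpoI, a homing endonuclease, is induced to cut at a site inserted into chromosome II. The RNA-DNA hybrid antibody S9.6 was applied to Rnh1del-Rnh201del cells, with I-PpoI ON or OFF, in 4 libraries. These cells lack genes of both ribonucleases H, enzymes that degrade the RNA of hybrids, and the S9.6 libraries listed include no WT cells. The remaining 8 recovered Ssb2-Flag, a tagged RPA subunit that marks single-stranded DNA, from WT cells with I-PpoI OFF, and with I-PpoI ON from WT, Rnh1del-Rnh201del and pNmt1::Rnh1 cells. The pNmt1::Rnh1 strain, labelled as overexpressing Rnh1, carries it under the thiamine-repressed nmt1 promoter. The files analysed hold intervals and no value of any library, so library depth is unknown and no comparison between the groups was made. Every value below is a property of the annotation or of the reference sequence, without replicates. Shares carry 95% Wilson intervals, which assume independent features, an assumption that neighbours sharing an overlap break. No test between feature classes was run.

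The bases that an antisense RNA shares with a gene can hold that gene's start or stop codon. The stretches below show this for the RNAs nearest the break and for genes of break repair, of meiotic recombination and of the strains. Each reads from 5′ to 3′ on the strand of the coding gene, lies wholly opposite the named RNA, and has the start or stop codon in capitals. They come from the RefSeq genome, build ASM294v3, with loci matched by name.
nit1 opposite SPNCRNA.1422, plus strand, chrII:1240185-1240244: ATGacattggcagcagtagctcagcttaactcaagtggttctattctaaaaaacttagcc
The same bases on the strand of SPNCRNA.1422: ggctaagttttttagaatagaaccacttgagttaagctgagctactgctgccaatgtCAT
ppk31 opposite SPNCRNA.1421, minus strand, chrII:1215862-1215921: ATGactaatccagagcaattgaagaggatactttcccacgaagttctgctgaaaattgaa
mre11 opposite SPNCRNA.647, plus strand, chrI:438310-438369: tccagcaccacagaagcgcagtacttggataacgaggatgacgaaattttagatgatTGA
rad52 opposite SPNCRNA.711, minus strand, chrI:1101478-1101537: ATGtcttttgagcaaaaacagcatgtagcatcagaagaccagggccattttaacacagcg
rec7 opposite SPNCRNA.69, minus strand, chrIII:1549010-1549069: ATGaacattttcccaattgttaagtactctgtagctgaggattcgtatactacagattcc
nmt1 opposite SPNCRNA.1234, plus strand, chrIII:1838485-1838544: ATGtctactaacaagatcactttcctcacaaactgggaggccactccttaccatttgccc
nmt1 opposite SPNCRNA.1234, plus strand, chrIII:1839466-1839525: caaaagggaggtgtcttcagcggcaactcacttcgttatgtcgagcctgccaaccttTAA
In the nit1 pair the start codon of the gene reads CAT on the RNA strand. The mre11 stretch ends in the stop codon TGA, and SPNCRNA.1234 holds both ends of the nmt1 coding sequence.

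The members made up 62.7% of the annotated SPNCRNA features (95% Wilson interval 60.2 to 65.0), so an annotated non-coding RNA more often had a coding feature opposite than not. The share was 63.1% on chromosome I (431 of 683), 62.5% on II (355 of 568) and 61.9% on III (179 of 289), and these intervals overlapped. Density was 77.3 members per Mb on chromosome I, 78.3 on II and 73.0 on III, taking the highest annotated end as the chromosome length. The plus strand held 477 of the 965. Of the members, 112 shared bases with another member of the same strand and 16 with a member of the opposite strand. Joined where they overlapped on 1 strand, the 965 members formed 906 separate stretches, so they are not all separate transcription units.

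Seen from the genes, 1095 of 5150 coding features (21.3%, 20.2 to 22.4) had at least 1 member opposite, and the share was between 21.1% and 21.6% on each of the 3 chromosomes. Most of these genes, 1007, had 1 member, 83 had 2, 3 had 3 and 2 had 4. In bases, 9.85% of the summed length of coding features lay opposite a member. Most members, 750 (77.7%), faced 1 coding feature, 205 faced 2 and 10 faced 3. A member could thus overlap more than 1 gene of the other strand. In 139 of the 205 members with 2 partners (14.4% of all members), the 5′ end lay opposite the 5′ part of 1 gene. The 3′ end of these 139 lay opposite the 3′ part of the other gene. In 105 of the 139 the RNA also crossed a gap between the genes, and in the other 34 the genes left no base of it unshared. SPNCRNA.829 was one of the 10 with 3 partners. It ran from 2459474 to 2462176 on chromosome I, with its ends opposite trp2, a tryptophan synthase gene, and usp101, a component of the U1 splicing complex, and with pth2, a peptidyl-tRNA hydrolase gene, wholly inside it.

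The overlaps were long. A member shared a median of 998 bases with coding features (interquartile range 544 to 1592, lowest 1, highest 4985), which was a median of 88.3% of its own length. All bases of the member were shared in 276 of 965 (28.6%, 25.8 to 31.5), and at least 50% in 779. Fewer than 100 bases were shared by 57 members and fewer than 10 by 6. The longest shared stretch belonged to SPNCRNA.1206, from 1565773 to 1570757 on the minus strand of chromosome III. All of its 4985 bases lay inside nup211, which encodes a nucleoporin, a protein of the nuclear pore. SPNCRNA.836 on chromosome I came next, with 4787 bases inside myp2, a myosin II heavy chain gene. SPNCRNA.1451 on chromosome II followed with 4597 bases, opposite cdc28, a splicing helicase gene, and pmt1, whose product methylates transfer RNA. In the plot of shared bases the diagonal holds the 242 members inside a gene and 34 whose partners together cover them, and the others lie below it.

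**Figure D1:**
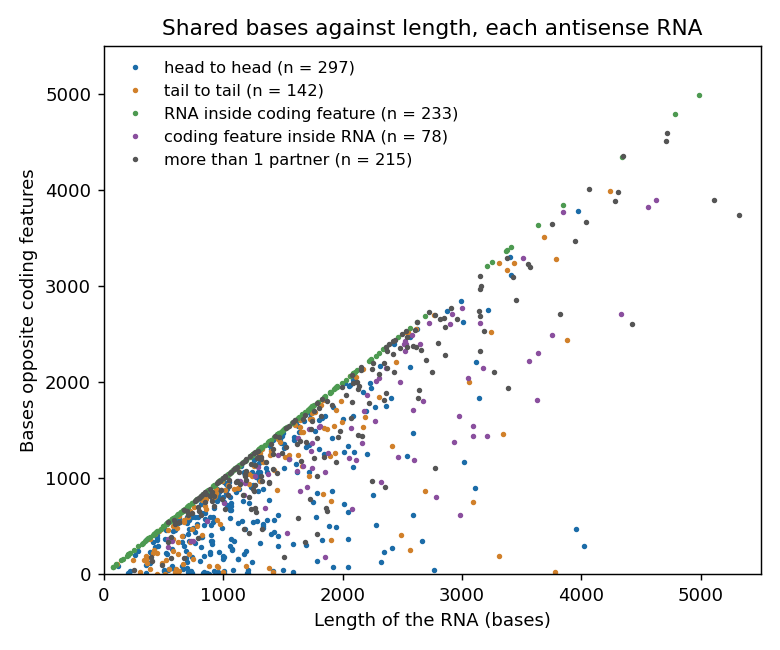
Each point is 1 of the 965 antisense RNAs, with its length on the horizontal axis and the bases it shares with opposite-strand coding features on the vertical axis, both in bases, coloured by arrangement. Points on the diagonal are the 276 RNAs shared over their whole length, and shared stretches reach 4985 bases.

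At the other extreme some pairs only touched. Of the 10 members with the fewest shared bases, 3 still shared bases in the reference, and a named antisense RNA of cti6, the gene of a PHD finger subunit of the Rpd3L histone deacetylase complex, shared few as well. These stretches of 30 bases are shown because the whole overlap fits in them. They are on the plus strand, which is the coding strand, of ASM294v3, with the shared bases in capitals.
SPNCRNA.1123 and lat1, chrIII:264754-264783: cgttaagtgctgTTGGGtatgtaaattatt
SPNCRNA.457 and ark1, chrIII:141618-141647: gacgaacttgtcAAAAGccaacatcagcgt
SPNCRNA.854 and dlc1, chrI:2788014-2788043: gtgtctttATCTCACTGCGTACcctccttg
SPNCRNA.1365 and cti6, chrII:514151-514180: ttccAATCCTTCACCATTCCCCAAGcgcac
The deposited intervals gave 6 shared bases for SPNCRNA.1123 with lat1, a pyruvate dehydrogenase subunit gene, where the reference gave 5. For SPNCRNA.457 and ark1, the Aurora-B kinase gene, they gave 9 against 5. For SPNCRNA.854 and dlc1, a dynein light chain gene, they gave 15 against 14, and for SPNCRNA.1365 and cti6, 30 against 21. The single smallest overlap was 1 base, between the poly(A)-bearing RNA SPNCRNA.58 (prl58) and SPAC20G8.02, and it was absent from the reference.

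Each of the 1190 member-gene pairs fell into 1 of 4 arrangements. In 488 pairs (41.0%, 38.2 to 43.8) the 5′ ends overlapped, head to head, so that the RNA began inside the gene and ran out across its start. In 317 pairs (26.6%, 24.2 to 29.2) the 3′ ends overlapped, tail to tail. The RNA lay inside the gene in 242 pairs (20.3%) and the gene lay inside the RNA in 143 (12.0%). Pairs of coding features on opposite strands had another make-up in the same annotation. Of 1231 such pairs, 64.3% (61.5 to 66.9) were tail to tail, 18.3% (16.2 to 20.5) head to head and 17.5% nested. Shared stretches were longest where the gene lay inside the RNA, with a median of 1363 bases. The median was 1090 for an RNA inside a gene, 595 head to head and 566 tail to tail.

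**Figure D2:**
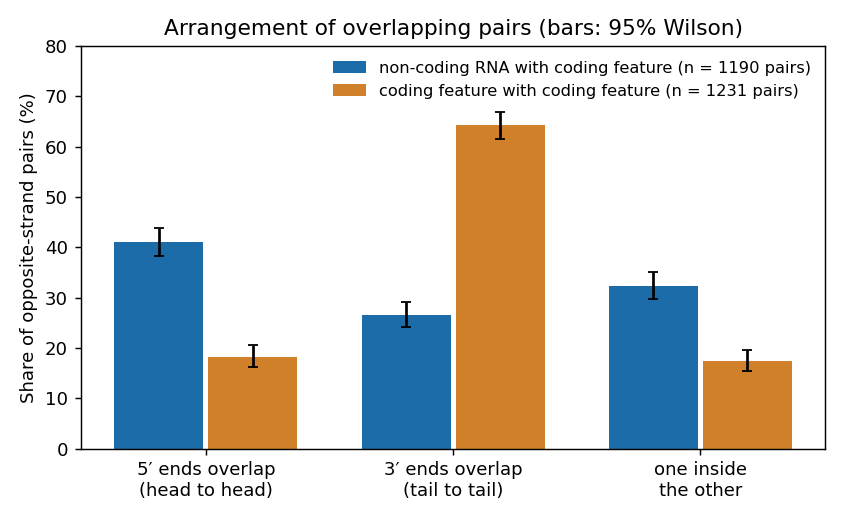
Bars give the share of opposite-strand overlapping pairs, in percent, that are head to head, tail to tail or nested, for 1190 pairs of a non-coding RNA with a coding feature and 1231 pairs of coding features, with 95% Wilson intervals. Head to head is the tallest bar of the RNA pairs at 41.0%, and tail to tail of the coding pairs at 64.3%.

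The count of head-to-head pairs depends on where the 5′ ends of the coding features were drawn. On chromosomes I and III the deposited coding features with a member reached past the RefSeq 5′ end by a median of 55.5 bases, and by more than 1 base in 554 of 694 (79.8%). Their 3′ ends exceeded the reference by more than 1 base in 4 of 694. Coding features without a member were extended at the 5′ end by a median of 36 bases. Members themselves had nearly the same ends in both annotations, with 2 of 583 longer by more than 1 base at the 5′ end. Of 464 head-to-head pairs with both loci in the reference, 351 (75.6%) still shared a base there and 113 did not. Of 306 tail-to-tail pairs, 304 did. The share of head-to-head pairs among RNA pairs was nevertheless 41.0% with reference intervals, where 156 of the 218 remaining pairs with the RNA inside the gene had the same arrangement as deposited. Among pairs of coding features it was 4.43% (44 of 993) with reference intervals, against 18.3% as deposited.

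Along the genes, the cover by antisense RNAs was higher at the start than at the end. Each of the 1095 coding features with a member was divided into 10 equal parts. The deposited ends were used, and the profile was not repeated with the reference 5′ ends. On average 56.6% of the first part and 41.8% of the last lay opposite a member. For head-to-head pairs alone the cover fell from 86.1% in the first part to 5.67% in the last. For tail-to-tail pairs it rose from 6.28% to 78.6%. RNAs inside a gene covered the middle, with 62.5% of the fourth part but 24.3% of the first and 21.9% of the last. The slopes within each arrangement follow from how the arrangements are defined. The profile over all features mixes the arrangements, with 488 head-to-head and 317 tail-to-tail pairs, and is not separate from those counts.

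**Figure D3:**
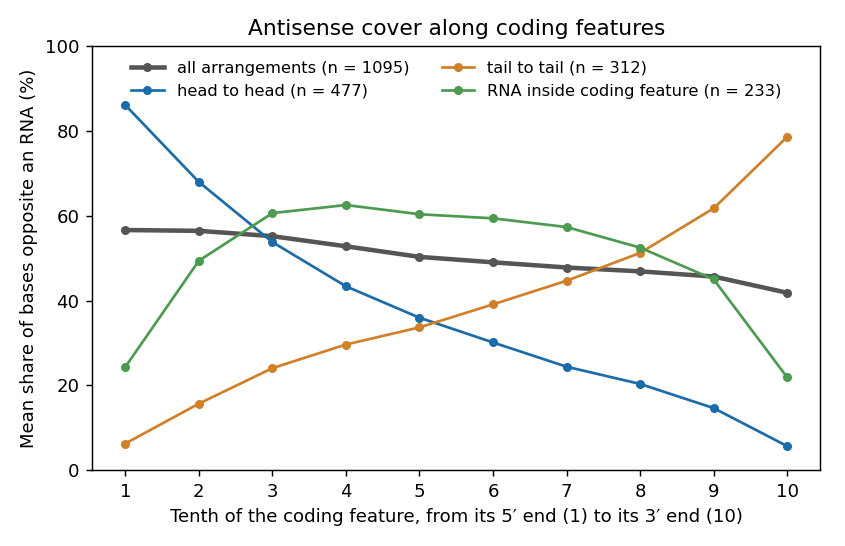
Points give the mean share of bases, in percent, that lie opposite an antisense RNA in each of 10 equal parts of the coding features from 5′ end to 3′ end, over all 1095 features with such an RNA and for 3 arrangements. Over all of them the cover is 56.6% in the first part and 41.8% in the last.

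Most members were antisense to protein-coding bases and not only to the ends of messenger RNAs. In the reference, 923 members were found by locus name and strand, and 838 of them had a protein-coding gene opposite there. Of these, 720 (85.9%, 83.4 to 88.1) lay opposite at least 1 base of coding sequence, and 118 (14.1%) only opposite untranslated parts or introns. Coding sequence made up 75.5% of all bases shared in the reference. A start codon lay opposite 548 members (65.4%, 62.1 to 68.5) and a stop codon opposite 451 (53.8%, 50.4 to 57.2). Both kinds lay opposite 321 members, a start codon without a stop codon opposite 227, a stop codon without a start codon opposite 130, and coding sequence with neither opposite 42. By arrangement, 288 of 349 head-to-head pairs (82.5%) covered the start codon, and 172 of 304 tail-to-tail pairs (56.6%) covered the stop codon. The remaining 132 tail-to-tail pairs (43.4%) shared no coding base, as did 61 head-to-head pairs (17.5%).

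Members were longer than the other non-coding RNAs. Their median length was 1289 bases (95% interval of the median 1239 to 1331, lowest 77, highest 5318), against 669 bases (610 to 727, lowest 57, highest 5124) in the 575 SPNCRNA features without a coding feature opposite. A longer interval has more chance to meet a gene, so the rule itself favours length and the difference is given as a description. The share of members rose with length, from 18.7% (17 of 91) up to 250 bases and 26.8% above that and up to 500, to 56.1% up to 1000, 75.5% up to 2000 and 233 of 259 above 2000 bases. Same-strand overlap with a coding feature, where a non-coding RNA cannot be told apart from a longer form of the messenger RNA by position alone, went the other way. It was present in 150 members (15.5%, 13.4 to 18.0) and in 145 of the 575 others (25.2%, 21.8 to 28.9). The reference itself names some members, such as SPNCRNA.609, a possible alternative UTR, the untranslated part of a messenger RNA.

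**Figure D4:**
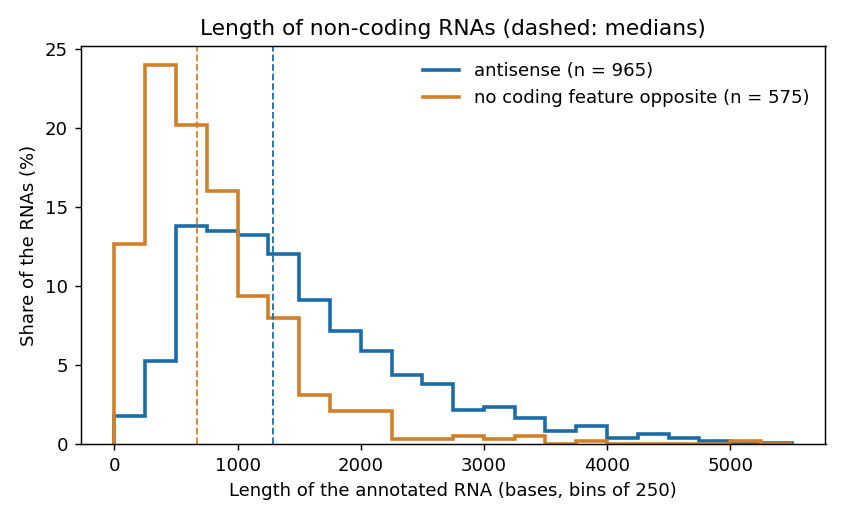
Lines give the share of RNAs, in percent, in length bins of 250 bases for the 965 antisense RNAs and the 575 other non-coding RNAs, and dashed lines mark the medians. The antisense RNAs have their median at 1289 bases and the others at 669.

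Members were richer in G and C than the other non-coding RNAs. GC content, computed for loci found in the reference, had a median of 35.8% in 923 members (interquartile range 33.8 to 37.9) and 32.7% in 502 other non-coding RNAs (30.4 to 35.4). Within length bins the median was higher in members as well, at 34.5% against 32.2% above 500 and up to 1000 bases and 35.9% against 34.1% above 1000 and up to 2000. Coding genes with a member had a median of 37.0%, and those without a member had 36.8%. In 524 members with at least 100 shared and 100 unshared bases, the shared part had a median GC content of 37.1% and the unshared part 32.4%, and the shared part was higher in 436 of the 524. Complementary strands have equal GC content, so the shared part has the GC content of that stretch of the gene. Introns in the coding sequence were present in 460 of 1078 genes with a member (42.7%, 39.8 to 45.6) and in 1927 of 4023 without (47.9%, 46.4 to 49.4).

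Long reading frames were also more frequent in members. The longest run from ATG to a stop codon on the RNA strand had a median of 52 codons in members and 37 in the others. At least 100 codons were reached by 67 of 923 members (7.26%, 5.76 to 9.12) and by 2 of 502 others (0.398%, 0.109 to 1.44). Among RNAs above 1000 and up to 2000 bases it was 20 of 387 (3.37 to 7.85%) against 1 of 117 (0.151 to 4.68%). Above 2000 bases it was 44 of 223 (15.0 to 25.4%) against 1 of 26 (0.682 to 18.9%). In each of these bins the intervals overlapped. The part of length within a bin was not tested. In 54 of the 67 members the frame lay for at least 90% of its bases opposite the coding sequence of the gene on the other strand, and in 5 it had no coding base opposite. SPNCRNA.1203 and SPNCRNA.132, which overlap on the same strand, carry 1 and the same frame. The longest, of 324 codons, was in SPNCRNA.600 (nc-tco1), which the reference describes as a translationally silent transcript of the tco1 locus. That frame overlapped tco1 itself on the same strand and had no coding sequence opposite. The next longest, of 195 codons in SPNCRNA.1517, which was chosen after its value was seen, lay wholly opposite the coding sequence of srm1. Whether any of these frames is translated was not measured.

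The name non-coding RNA covered several kinds of RNA. By reference biotype, 918 of the 923 matched members were long non-coding RNAs. The other 5 were named here after their values were seen. They were the small nucleolar RNA transcripts SPNCRNA.814, SPNCRNA.498 and SPNCRNA.1650 and the small poly(A)-bearing RNAs SPNCRNA.27 (prl27) and SPNCRNA.40 (prl40). The reference calls SPNCRNA.498 a candidate small nucleolar RNA and marks SPNCRNA.27 as not reproduced. A gene symbol was given to 32 members, 23 of them in the prl series of polyadenylated RNAs. SPNCRNA.928 (meu16), of the meiotic expression upregulated series, ran 2613 bases on the minus strand of chromosome I, with 2556 bases opposite mde6. SPNCRNA.659 (snoZ), the primary transcript of a cluster of small nucleolar RNAs, shared 761 of its 1902 bases with psf3, a subunit of the GINS replication complex. SPNCRNA.54 (prl54) shared 367 of 550 bases with hus1.

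Genes of break repair are of interest in a study of a cut chromosome. Of 24 listed genes of break resection and recombination, 9 had a member opposite (37.5%, 21.2 to 57.3), beside 21.3% of all coding features. The wide interval reflects the 24 genes, its lower end lies close to the value for all coding features, and no test was made. The 9 were rad50, mre11, ctp1, exo1, rad52, rad55, rad57, dmc1 and brc1. Mre11, with Rad50, forms the nuclease complex that binds broken ends, and Ctp1 is its partner in starting resection. In the deposited annotation mre11, from 435169 to 439980 on the plus strand of chromosome I, had 3 members opposite. SPNCRNA.646 shared 890 bases at its 5′ end, SPNCRNA.647 shared 1748 bases inside it and SPNCRNA.648 shared 841 bases at its 3′ end, so that 72.3% of mre11 was covered. The reference starts mre11 at 436179. The 5′ end of SPNCRNA.646, on the minus strand, then lay upstream of the gene, with 120 bases between them. The reference also names SPNCRNA.646 a possible alternative UTR, and as deposited it shared 68 bases with mug121 on the same strand. SPNCRNA.647 covered the stop codon shown above.

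In the other repair genes the arrangement varied. ctp1 and dmc1, the meiotic recombinase gene, each lay wholly inside 1 RNA, SPNCRNA.1189 and SPNCRNA.904, with 1525 and 1132 shared bases. rad50 had SPNCRNA.936 inside it with 1996 shared bases. rad52, a recombination mediator gene, had SPNCRNA.711 head to head with 1594 shared bases, which is 76.0% of rad52. exo1, a resection exonuclease gene, had SPNCRNA.1526 head to head with 859 shared bases. rad55 and rad57, also recombination mediator genes, both had a tail-to-tail RNA, SPNCRNA.791 with 903 and SPNCRNA.796 with 1212 shared bases. brc1 shared only 71 bases with SPNCRNA.1356, and that overlap was absent from the reference. With 100 shared bases required, the count was 8 of the 24, beside 18.9% of all coding features. With reference intervals it was also 8 of the 24, beside 18.8%. No member lay opposite nbs1, the gene of another subunit of the Mre11 complex.

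Among the other lists, 1 of 4 end-joining genes had a member, pku70, whose product binds DNA ends. It shared 1674 bases with SPNCRNA.1264, tail to tail. Of 12 checkpoint genes 4 did, namely cds1, hus1, mrc1 and rad4. The 287 bases that rad4 shared with SPNCRNA.166 were not shared in the reference, which left 3 of 12. mrc1, the replication checkpoint mediator gene of 3252 bases, shared 3235 of them with SPNCRNA.972. hus1, of the sliding clamp that loads at damage, had prl54 at its 3′ end and SPNCRNA.1027 at its 5′ end, the latter with 1134 shared bases. Of 12 RNA polymerase II subunit genes 3 had a member, rpb3, rpb8 and rpb9, and rpb9 lay wholly inside SPNCRNA.1021. Of 21 genes of RNA interference, the exosome and its adaptor complex MTREC 4 did, namely mtr4, cid14, pla1 and pab2. mtr4 and cid14 encode the helicase and the poly(A) polymerase of the TRAMP complex that delivers RNAs to the exosome. The values were, with examples chosen after they were seen, 2 of 10 for core histones (hta1 and hhf3, both wholly inside an RNA) and 1 of 12 for glycolysis (pgi1, with 354 bases shared with SPNCRNA.1648). All 9 intervals of the lists overlapped the share of all coding features.

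**Figure D5:**
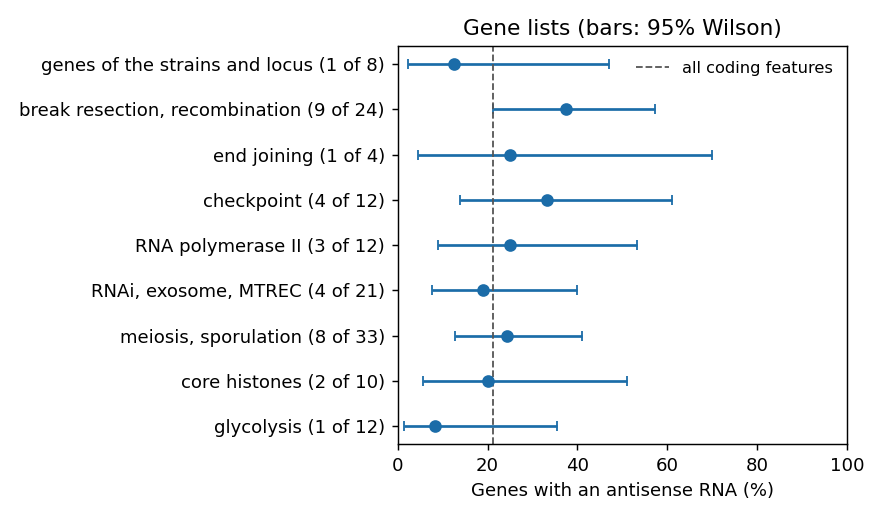
Points give the share of listed genes, in percent, that have an antisense RNA opposite, with 95% Wilson intervals and, in brackets, the counts. The dashed line is the share of all coding features, 21.3%, and every interval includes it, with 9 of 24 for break resection and recombination.

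Meiosis and sporulation genes had a member in 8 of 33 cases (24.2%, 12.8 to 41.0), close to the share of all coding features. Chosen after their values were seen, rec12, the gene of the Spo11-family protein that makes meiotic breaks, lay wholly inside SPNCRNA.760 with 1280 bases, and hop1, a gene of the meiotic chromosome axis, shared 1762 bases with SPNCRNA.1602, tail to tail. Another, rec7, which is required for meiotic recombination, was with eta2 one of the 2 coding features with 4 members opposite. rec7 ran from 1547050 to 1549069 on the minus strand of chromosome III. SPNCRNA.1203, of 4423 bases, contained all of its 2020 bases. Within that span SPNCRNA.132 shared 940 bases with its 3′ part, SPNCRNA.69 (tos1) shared 1143 bases with its 5′ part and SPNCRNA.131 (tos2) lay inside it with 550. SPNCRNA.1203 spans the other 3 on the same strand, so position alone does not tell whether the 4 are separate transcripts. eta2, an RNA polymerase I termination factor gene on chromosome I, was likewise wholly covered by SPNCRNA.872. SPNCRNA.72, SPNCRNA.73 and SPNCRNA.74 lay over parts of the same stretch, and none of them was found by name in the reference.

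Of 8 genes tied to the strains, the antibody target and the break locus, 1 had a member. nmt1, the thiamine biosynthesis gene whose promoter drives rnh1 in 1 of the strains, ran from 1838334 to 1839525 on the plus strand of chromosome III, and all of its 1192 bases lay opposite SPNCRNA.1234. That RNA, on the minus strand from 1837498 to 1840092, also spans the bases upstream of the annotated nmt1 start. No member lay opposite rnh1, rnh201, ssb1, ssb2, ssb3, arg6 or ura5.

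No member lay within 10 kb of the break site, taken as the centre of the Cutsite feature at 1231100 on modified chromosome II. Within 20 kb there were 2, within 50 kb 4 and within 100 kb 15. These distances reach to both sides of the break. Chromosome II as a whole held 78.3 members per Mb, and the counts were not tested against that density. The nearest on the right was SPNCRNA.1422, 10888 bases away, from 1241988 to 1243090 on the minus strand. All of its 1103 bases lay inside nit1, a nitrilase superfamily gene, and it covered both the start and the stop codon of nit1 in the reference. The nearest on the left was SPNCRNA.1421, 14898 bases away, from 1212518 to 1216202 on the plus strand. It shared 3514 of its 3685 bases with ppk31, a serine/threonine protein kinase gene. The next on the left were SPNCRNA.1420, 28108 bases away and inside maa1, an aspartate aminotransferase gene, and SPNCRNA.569, 46857 bases away and inside trm734. Further right lay SPNCRNA.570 at 67531 bases, which contains SPBC3D6.16, and SPNCRNA.1427 at 68440 bases, inside wsc1. SPNCRNA.570 shared 347 of its 735 bases with SPBC3D6.16, and all 735 with SPBC30B4.09 on its own strand. The nearest RNA on the left lay opposite a gene over 95.4% of its length and the nearest on the right over all of it.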

How the data were processed

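The study measured ChIP-exo signal in 12 libraries, and the libraries' reads were aligned with Bowtie2 to ASM294v2, per the submitters' processing notes. The file analysed is the deposited interval list of the modified genome. Per its columns, the deposited positions are bases with a 0-based start, and the deposited score is 0 in every row. No source used here says how the authors drew them. Positions are printed 1-based in modified ASM294v2 unless a reference position is named.

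Overlap meant at least 1 shared base on opposite strands. Loci were matched by name, without transcript suffix, to RefSeq ASM294v3, and coding sequence, codons, GC content, reading frames and printed sequences were read there in reference coordinates, never across builds. Deposited starts mostly lie 1 base before reference starts (581 of 583 members on chromosomes I and III). A reading frame was any run from ATG to an in-frame stop. Intervals of medians are binomial order-statistic intervals. Overlap functions were tested on simulated intervals. Computation used matplotlib 3.10.9, scipy 1.17.1 and numpy 2.4.6 under Python 3.11.15. The deposited insert sequence was not used, and ChIP-exo signal was not analysed here. Alternatives changed the overlap minimum, the start position, the partners and the annotation.

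Named RNAs were the 10 with the most and the 10 with the fewest shared bases (examples of each printed), those with most partners, those nearest the break, those with symbols and those opposite listed genes, and genes with most members. Members and lists were chosen with earlier results of these data known.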

Additional observations from a re-analysis of the deposited data

How the results depend on the processing

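No paired analysis was possible because interval lists carry no measurement per library. For 8 results, 35 alternatives were run, of which 23 stayed within the interval of the share or median, or within 1.5 times the count, and 12 did not. The percent of non-coding RNAs that are antisense (62.7%) was 59.0% with 100 shared bases, 49.0% with 50% of the RNA shared with a single coding feature (754 RNAs, against 779 over all partners together) and 59.1% with reference intervals of the same loci. The percent of coding features with an antisense RNA (21.3%) was 18.9% with 100 shared bases, 9.92% with 50% of the gene shared and 18.8% with reference intervals. With all 7133 long non-coding RNAs of the reference, an alternative chosen after seeing the data, 5443 (76.3%) were antisense, 75.4% of coding genes had one, median length was 693 bases, median shared length 569 bases and the head-to-head share 30.8%. With reference intervals, also chosen after seeing the data for the gene lists, brc1 and rad4 were the listed genes that lost their antisense RNA. In the list of all reference RNAs 19 of the 24 break resection and recombination genes had an antisense RNA. A gene without a member in the deposited list is not shown to lack antisense transcription. Depth is unknown, so what depth limits cannot be stated.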
